A study of Arabidopsis thaliana with 4 samples.

Results

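Jasmonate is the plant hormone of wounding and insect attack. Its active form, a conjugate with isoleucine, binds the receptor COI1, which sends the JAZ repressors to degradation and frees MYC2 and related basic helix-loop-helix factors to turn on output genes in leaves. A set of 8 genes grouped as jasmonate and wound output, of the 32548 in the deposited expression table, was picked by gene identifier. It held the vegetative storage protein genes VSP1 (AT5G24780) and VSP2 (AT5G24770), the N-acetyltransferase genes NATA1 (AT2G39030) and NATA2 (AT2G39020), the cystine lyase gene CORI3 (AT4G23600), the tyrosine aminotransferase gene TAT3 (AT2G24850), the amidohydrolase gene ILL6 (AT1G44350) and MYC2 (AT1G32640). The set was chosen with the uba2c against Col-0 values of these data known, so for the 8 genes those values are a description, given with no p-value and with nothing inferred from them.

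RNA was sequenced from whole seedlings 2 weeks old of the wild type Col-0 (2 libraries) and of uba2c(-/-) (2 libraries), homozygous mutants of the gene for the RNA-binding protein UBA2C. Plants of both genotypes came from Murashige and Skoog plates in long days, with 16 h of light (23 °C) and 8 h of dark (22 °C). The uba2c allele, the place of the lesion, the time of harvest and whether the 2 libraries of a genotype came from separate plants are not given, so p-values cover no more than the variation among these 4 libraries, part or all of which can be technical. The labels name no wounding and no jasmonate treatment.

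Reads assigned to genes, recovered from the deposited values, came to 19720586 to 19847651 per library. UBA2C itself stood at 799 and 771 in Col-0 and at 209 and 234 in uba2c, which goes with the labels. Unless a sentence says otherwise, values are as deposited, that is reads per gene scaled to one library size. Of the defining markers, the 5 of leaf summed to between 698020 and 757630 per library and the 6 of root to between 35195 and 37324, nearly all of it from PYK10 (32728 to 36010), while 3 of the other root markers fell in uba2c. The 4 flower markers summed to 190 and 192 in Col-0 and to 140 and 136 in uba2c. Of the 3 seed markers SESA1 had no read in any library and OLEO1 at most 1. The third, CRA1, was at 6.80 and 4.83 in Col-0 and at 1.93 and 0.975 in uba2c.

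VSP1 and VSP2 lie 5365 bases apart on the minus strand of chromosome 5 and encode proteins related to acid phosphatases that deter insects. Their windows from 250 bases before to 50 bases after the annotated start (RefSeq, TAIR10.1) shared 4 runs of at least 12 identical bases in one alignment, the longest of 23, while those of NATA1 and NATA2 and those of CORI3 and TAT3 shared 0. The windows are printed 5′ to 3′ because the pair moved together, with the runs of that alignment in capitals. A stretch identical in both windows that the alignment did not pair in full stays in lower case. Over the whole alignment 48.6% of columns were identical for the VSP pair, 46.5% for the NATA pair and 48.2% for CORI3 and TAT3. The VSP1 window is chr5:8509152-8509451 and the VSP2 window chr5:8502175-8502474, both read on the minus strand.
VSP1: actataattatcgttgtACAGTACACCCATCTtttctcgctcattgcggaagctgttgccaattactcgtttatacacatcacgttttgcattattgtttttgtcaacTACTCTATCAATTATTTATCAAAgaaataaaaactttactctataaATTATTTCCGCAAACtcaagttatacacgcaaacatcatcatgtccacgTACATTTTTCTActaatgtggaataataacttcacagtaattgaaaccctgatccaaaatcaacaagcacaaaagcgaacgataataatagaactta
VSP2: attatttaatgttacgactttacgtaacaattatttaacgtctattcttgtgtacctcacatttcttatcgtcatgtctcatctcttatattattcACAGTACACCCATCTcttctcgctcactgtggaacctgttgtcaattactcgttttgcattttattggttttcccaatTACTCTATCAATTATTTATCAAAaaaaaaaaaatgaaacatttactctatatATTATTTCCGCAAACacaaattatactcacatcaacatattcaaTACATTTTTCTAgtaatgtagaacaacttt

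A short read must tell the 2 transcripts apart. Of all 50-base words in the exons of VSP1, 5 of 1191 (0.4%) occurred elsewhere in the genome, and of those of VSP2, 5 of 1418 (0.4%), in each case in the other VSP gene. They came from 1 identical run of 54 bases inside a coding exon, at chr5:8508594-8508647 in VSP1 and chr5:8501564-8501617 in VSP2, shown on the coding strand.
Shared VSP1 and VSP2 run: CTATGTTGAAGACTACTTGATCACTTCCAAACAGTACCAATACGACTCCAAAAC
For NATA1, NATA2, CORI3, TAT3, ILL6 and MYC2, 0 of the 50-base words occurred elsewhere, so no exact 50-base match within their exons is shared. Near matches and reads across exon junctions were not searched.

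The 8 windows were searched on both strands for sites that MYC-type factors are known to bind. The G-box CACGTG was in 0 of 8, against 7.7% of the windows of 27443 protein-coding genes. The variant CACATG was in 1 of 8 (TAT3, at position −111 from the start), against 12.9%. The T/G-box AACGTG was in 3 of 8, against 9.0%. It began at position −170 in VSP1, −93 in NATA1 and −115 in MYC2. These are matches of letters and no sites of binding. The NATA1 window, chr2:16297860-16298159 on the plus strand, is shown because NATA1 changed most, with the T/G-box in capitals.
NATA1: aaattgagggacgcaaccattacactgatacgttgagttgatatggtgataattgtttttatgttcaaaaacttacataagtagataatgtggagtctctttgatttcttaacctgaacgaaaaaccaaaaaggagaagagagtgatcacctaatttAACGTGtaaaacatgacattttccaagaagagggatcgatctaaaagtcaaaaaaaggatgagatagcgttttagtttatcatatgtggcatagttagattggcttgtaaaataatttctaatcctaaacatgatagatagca

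The storage protein genes VSP1 (chr5:8507590-8509201) and VSP2 (chr5:8500468-8502224) were lower in both uba2c libraries. VSP2 was at 3088 and 3175 in Col-0 and at 961 and 1022 in uba2c. Both uba2c libraries lay below both Col-0 libraries, and the means were 3132 ± 61.5 and 992 ± 43.4 (SD, n = 2 each), a log2 change of −1.66 (SE 0.05) on the log2(value + 0.5) scale. VSP1 was at 570 and 581 in Col-0 and at 266 and 254 in uba2c, again with no overlap, a log2 change of −1.15 (SE 0.07). Per length of exon, VSP2 stood at 4.78 and 4.83 times VSP1 in Col-0 and at 3.20 and 3.55 times in uba2c.

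**Figure D1:**
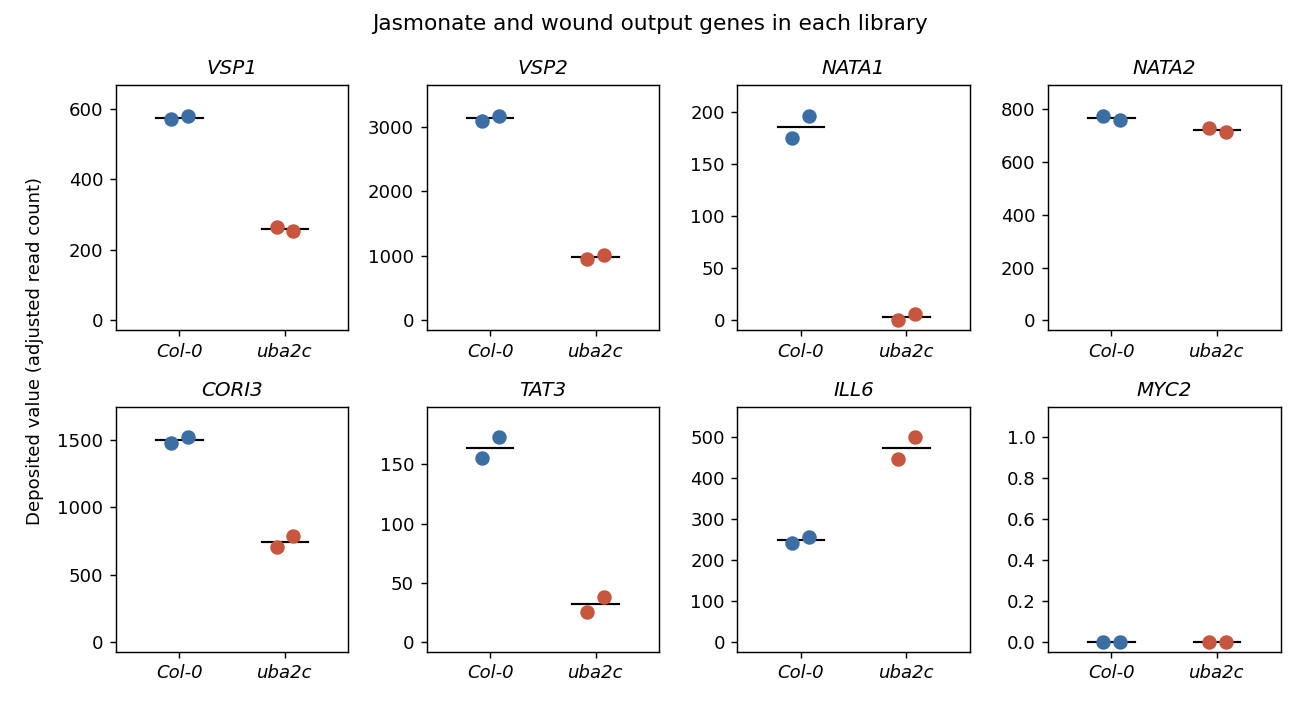
Deposited value (reads per gene scaled to one library size, axis from 0) of each of the 8 genes in the 2 Col-0 and 2 uba2c libraries; points are libraries and bars are means. NATA1 fell to 0.923 and 5.91 in uba2c, ILL6 was higher in both uba2c libraries, and MYC2 is listed at 0 in all 4.

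NATA1 (chr2:16298110-16299205, plus strand) encodes an acetyltransferase that modifies ornithine and putrescine and draws on the same precursors as polyamine synthesis. It was at 175 and 197 in Col-0 and at 0.923 and 5.91 in uba2c, or 181 and 203 recovered reads against 1 and 6. Both uba2c libraries lay far below both Col-0 libraries, with 384 reads against 7 in all. The ratio per read assigned to genes was 55.2 (95% exact interval 26.5 to 138). That interval pools the libraries of each genotype and covers counting error only. It covers neither the spread between libraries nor the choice of the set on these values. On the log2(value + 0.5) scale the change was −5.95 (SE 0.60), it was −4.86 without uba2c 1 and −7.03 without uba2c 2, so its size rests on which uba2c library is read. NATA2 (chr2:16295140-16296495), a tandem relative of NATA1, lies 1614 bases away on the same strand of chromosome 2. It was at 776 and 760 in Col-0 and at 731 and 714 in uba2c. NATA2 was thus slightly lower in both uba2c libraries, a log2 change of −0.09 (SE 0.05). Per length of exon, NATA1 stood at 0.280 and 0.320 of NATA2 in Col-0 and at 0.00163 and 0.0102 in uba2c.

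CORI3 and TAT3 are aminotransferase-like genes that coronatine, a bacterial mimic of the active jasmonate, is known to induce. CORI3 lies at chr4:12310379-12313212 on the plus strand and TAT3 at chr2:10582074-10585216 on the minus strand. CORI3 was at 1472 and 1517 in Col-0 and at 705 and 787 in uba2c, a log2 change of −1.004 (SE 0.06). TAT3 was at 155 and 173 in Col-0 and at 25.9 and 38.3 in uba2c, a log2 change of −2.36 (SE 0.21). Neither gene overlapped between the genotypes.

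ILL6 (chr1:16834210-16838562, minus strand) went the other way. The enzyme cleaves isoleucine from the active jasmonate and so ends the signal. ILL6 was at 241 and 255 in Col-0 and at 445 and 499 in uba2c, so that both uba2c libraries lay above both Col-0 libraries. The means were 248 ± 9.74 and 472 ± 37.7 (SD, n = 2 each), a log2 change of 0.92 (SE 0.08).

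MYC2, the factor that heads this branch, is listed at 0 in all 4 libraries. The annotation bears on that 0. The single exon of MYC2 covers 3289 bases on the minus strand (chr1:11798119-11801407, TAIR10.1), and 3241 of them (98.5%) lie in an exon of AT1G32630 on the plus strand. The 48 bases left are fewer than the 50 of 1 read. Among protein-coding genes with fewer than 50 exon bases free of other genes, 481 of 535 (89.9%) are listed at 0 in every library, against 3723 of 26909 (13.8%) of the rest. Whether strand was used in counting is not given, and the 0 gives no level for MYC2 in either genotype. AT1G32630 itself was at 51.5 and 36.7 in Col-0 and at 29.8 and 30.4 in uba2c and did not pass (log2 change −0.52, limma adjusted p = 0.125). Of its own exon bases 89.3% overlap genes on the opposite strand and 390 are free, so its value may come from only part of its exons.

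**Figure D2:**
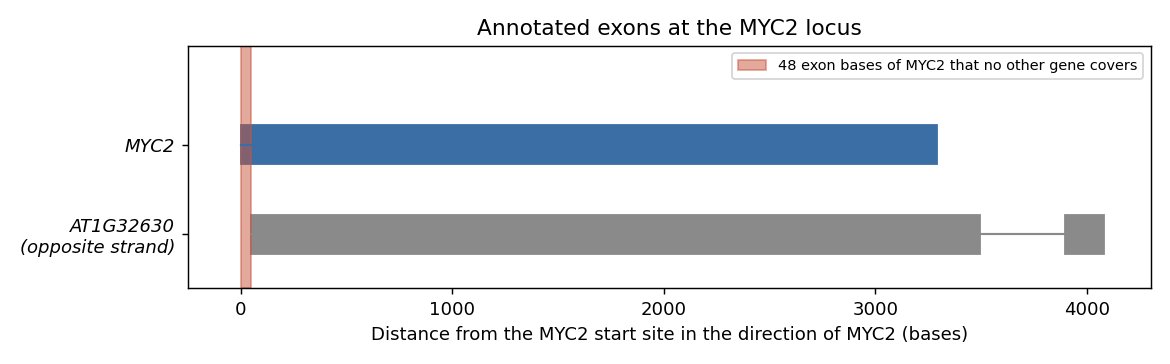
Annotated exons (boxes) of MYC2 and of AT1G32630 on the opposite strand, against distance from the MYC2 start site in bases. Exons of AT1G32630 cover all of MYC2 except 48 bases at its start, shaded.

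Of the 8 genes, 7 had reads, and of these 6 were lower and 1 was higher in uba2c with no overlap between the genotypes, against 34.5% and 33.6% of all 22439 genes tested, or 68.1% in either direction. In the fit across all genes 5 of the 7 passed a false discovery rate (FDR) of 0.05 as lower and 1 as higher, a count that is no test of the set, against 17.4% of all genes tested in each direction (34.8% in either; 45.5% with edgeR on recovered reads), and NATA2 did not. Since the set was chosen on this comparison, these counts describe it. The median log2 change of the 7 was −1.15, and that of all genes tested was −0.00.

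Per length of exon, the order of the levels also differed between the genotypes. In Col-0, in recovered reads per length of exon and library total, VSP2 was highest at 108 ± 2.09. CORI3 (33.8 ± 0.71), NATA2 (29.6 ± 0.45) and VSP1 (22.5 ± 0.29) followed, then NATA1 (8.88 ± 0.72), ILL6 (5.66 ± 0.22) and TAT3 (3.57 ± 0.27). Every pair of neighbours in that order was apart in both libraries. In uba2c the order was VSP2 (33.9 ± 1.05), NATA2 (27.7 ± 0.81), CORI3 (16.8 ± 1.08), ILL6 (10.7 ± 0.71), VSP1 (10.08 ± 0.44), TAT3 (0.69 ± 0.18) and NATA1 (0.16 ± 0.16), all with n = 2. There, ILL6 and VSP1 overlapped and could not be ranked.

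**Figure D3:**
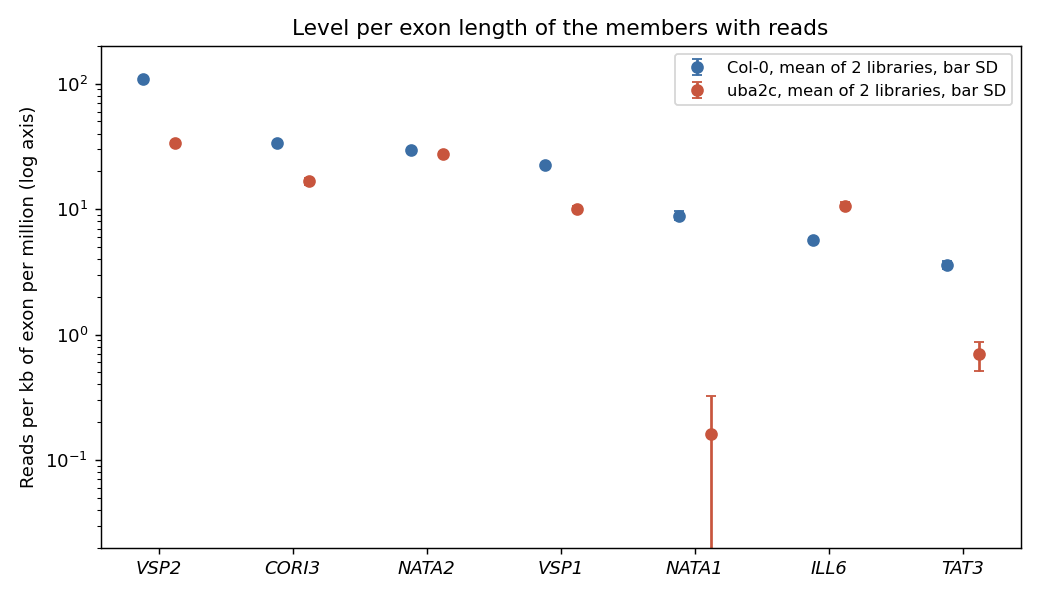
Level of the 7 genes with reads per length of exon (recovered reads per kb of exon, scaled to library total, log axis), mean of 2 libraries with SD. The bar of NATA1 in uba2c runs off the axis because its SD (0.163) exceeds its mean (0.161).

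Other genes of the pathway and relatives of the members, together called pathway genes here, came from 10 lists by function. The lists held 99 genes, of which 98 could be tested. They were chosen with earlier results of these data known, so their counts are a description and no test of the lists. In all, 35 were lower and 22 higher past the FDR, that is 35.7% and 22.4%, against 17.4% of all genes tested in each direction. That 17.4% is also the share to set beside each list count below. The median log2 change of the 98 was −0.11. Without either uba2c library limma called 0 of the 57, and edgeR on recovered reads kept 43 without uba2c 1 and 44 without uba2c 2. All fold changes below are on the log2(value + 0.5) scale, and the adjusted p-values come from limma over all genes tested.

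Further output genes also changed. Of 15, 7 fell, 3 rose and 5 did not pass, with a median of −0.69. KTI1, a Kunitz-type protease inhibitor gene, went from 1174 and 1267 to 606 and 583 (log2 change −1.04, SE 0.06, limma adjusted p = 9.45e-06). JAL23, a jacalin-type lectin gene, went from 279 and 242 to 54.9 and 48.0 (−2.33, limma adjusted p = 1.35e-05), and the ribonuclease gene RNS1 from 122 and 126 to 47.2 and 44.1 (−1.43, limma adjusted p = 0.000234). TPS04, which encodes a terpene synthase for the wound volatile precursor geranyllinalool and is named after its values were seen, went from 75.6 and 73.6 to 9.68 and 3.90 (−3.49, limma adjusted p = 0.000400). The lectin gene JR1 rose instead, from 2954 and 2940 to 4761 and 4637 (0.67, limma adjusted p = 6.86e-06), and 23.8% of its exon bases overlap a gene on the opposite strand.

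The early wound transcription factor genes, which respond within minutes of damage, fell in 7 of 9 cases with 0 rises, and their median was −1.42. ERF5 went from 620 and 614 to 141 and 173 (log2 change −1.98, SE 0.10, limma adjusted p = 6.84e-06). ERF6 went from 733 and 720 to 235 and 231 (−1.64, limma adjusted p = 1.90e-06), WRKY40 from 637 and 580 to 216 and 225 (−1.46, limma adjusted p = 6.84e-06) and the zinc finger gene ZAT10 from 906 and 884 to 334 and 336 (−1.42, limma adjusted p = 2.10e-06). ORA47, an AP2-type activator of jasmonate synthesis genes named after its values were seen, went from 393 and 411 to 104 and 128 (−1.80, limma adjusted p = 2.00e-05). RAP2.6L (−0.38) and ERF109 (−0.06) did not pass, and for ERF109, with 7 to 11 reads per library and 64% of its exon bases overlapped by an opposite-strand gene, little can be read from the value.

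**Figure D4:**
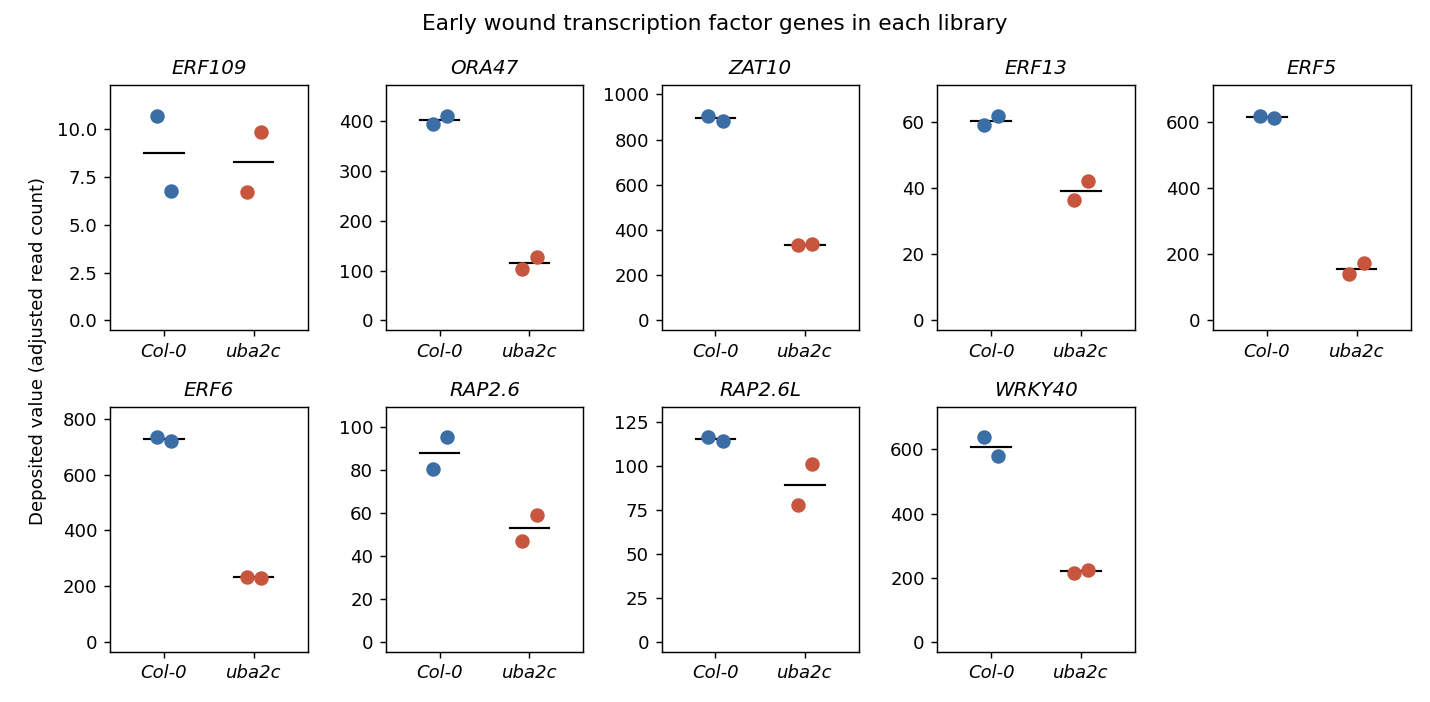
Deposited value (axis from 0) of the 9 early wound transcription factor genes in each library; bars are means of 2. In 8 of the 9 both uba2c libraries lie below both Col-0 libraries, against 34.5% of all genes tested, and ERF109 overlaps. RAP2.6L is among the 8 but did not pass the FDR.

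The synthesis enzymes moved in both directions. Of 13, 7 fell and 4 rose, with a median of −0.15. LOX2, the plastid lipoxygenase that supplies most wound jasmonate in leaves, went from 9382 and 9453 to 4434 and 4504 (log2 change −1.08, SE 0.03, limma adjusted p = 6.58e-07). AOS, the allene oxide synthase of the next step, went from 2896 and 3107 to 1732 and 1695 (−0.81, limma adjusted p = 1.07e-05). The cyclase genes AOC2 and AOC1, tandem copies that short reads may not fully separate, were at −0.92 and −0.57 (limma adjusted p = 1.40e-05 and 0.000102). The 4 that rose, named after their values were seen, were LOX4 (1.13), OPR3 (0.37), LOX3 (0.34) and ACX1 (0.20), and the call of LOX3 was lost with DESeq2.

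Among enzymes that turn jasmonate over, 1 of 9 rose and 2 fell, against 17.4% of all genes tested in each direction. The median of the 9 was 0.17. The hydroxyjasmonate sulfotransferase gene ST2A rose from 138 and 130 to 594 and 695 (log2 change 2.26, SE 0.09, limma adjusted p = 2.79e-06). The jasmonate oxidase genes JOX4 and JOX3 were lower, JOX4 at 9.57 and 27.3 in Col-0 and 2.88 and 2.94 in uba2c (−2.29, limma adjusted p = 0.0133) and JOX3 at −0.86 (limma adjusted p = 0.0363). Both calls were lost without Col-0 2, and that of JOX3 also with DESeq2. In the family of ILL6, 1 of 6 relatives rose and 2 fell: IAR3, which cleaves both auxin and jasmonate conjugates, was at 0.38, ILL3 at −0.57 and ILL2 at −0.30 (limma adjusted p = 0.00369, 0.0110 and 0.0191), and DESeq2 lost ILL3 and ILL2.

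The JAZ repressor genes, themselves targets of MYC2, rose in 5 of 12 cases and fell in 1, with a median of 0.20. JAZ9 went from 582 and 604 to 1782 and 1790 (log2 change 1.59, SE 0.05, limma adjusted p = 6.44e-07). JAZ2, JAZ6 and JAZ3 were at 0.42, 0.36 and 0.29 (limma adjusted p = 0.000800, 0.000666 and 0.00888, the last lost with DESeq2). JAZ1 (−0.10) and JAZ10 (−0.09), both strongly induced by jasmonate, did not pass (limma adjusted p = 0.191 and 0.750). JAZ5, at 0.94, and JAZ4, at −0.69, are named after their values were seen, and DESeq2 lost both calls.

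Of 10 receptor and MYC-type regulator genes, 3 fell and 2 rose, while COI1, MYC3 and MYC4 did not pass. COI1 was at 654 and 719 in Col-0 and 705 and 725 in uba2c (log2 change 0.06, limma adjusted p = 0.480), MYC3 was at −0.08 (limma adjusted p = 0.220) and MYC4 at −0.01 (limma adjusted p = 0.946). MYC5 fell by 0.85 on the log2 scale, from 90.1 and 95.01 to 44.1 and 58.9 (limma adjusted p = 0.00898). JAM2 and JAM1, which oppose MYC2 at shared targets, rose by 0.37 and 0.24, and the JAZ adaptor gene NINJA was at −0.20 (limma adjusted p = 0.00539, 0.0291 and 0.0193), the last 2 lost with DESeq2. JAM3, named after its values were seen, fell instead (−0.17, limma adjusted p = 0.0404), and DESeq2 lost that call too.

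Genes around the enzymes of the set moved in both directions, as did all genes tested, of which 17.4% passed in each. In arginine and polyamine metabolism 3 of 11 rose and 3 fell. ARGAH2, a jasmonate-inducible arginase that makes the ornithine NATA1 uses, went from 1071 and 1002 to 689 and 612 (log2 change −0.67, SE 0.07, limma adjusted p = 0.000225). ACL5, a thermospermine synthase gene, was at 0.76, ADC2 at 0.18 and ADC1 at −0.16 (limma adjusted p = 4.51e-05, 0.00497 and 0.0252, the last lost with DESeq2). Of 6 aminotransferase-like relatives of CORI3 and TAT3, 2 rose and 2 fell: TAT7 and AT4G28410 were at 0.71 and 0.70, SUR1 of glucosinolate synthesis at −0.20 and AT4G23590 at −2.16 (limma adjusted p = 4.40e-05, 0.0192, 0.00762 and 0.00338), and DESeq2 lost AT4G28410. Of 7 acid phosphatase-like relatives of VSP1 and VSP2, AT2G38600 rose by 1.33 and AT4G29260 fell by 0.23 (limma adjusted p = 0.00783 and 0.0141), and 5 did not pass. DESeq2 lost both calls.

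**Figure D5:**
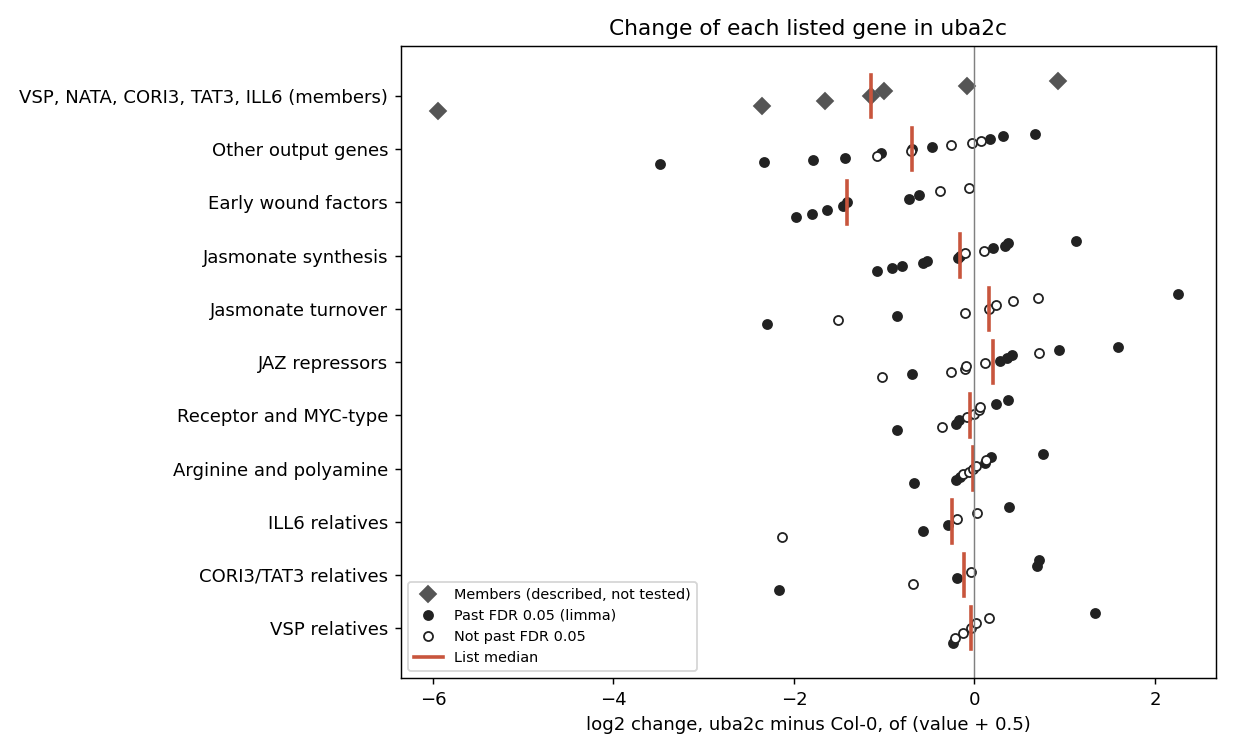
Log2 change in uba2c (log2 of value + 0.5, uba2c minus Col-0) of each tested gene, in 11 rows. The members come first, as grey diamonds that are a description only and carry no mark for the FDR. In the 10 lists below, filled circles passed FDR 0.05 in limma and open ones did not. Red lines are the medians of the rows. The early wound factors lie at or left of 0 and the members span −5.95 to 0.92.

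AT4G23590 sits 714 bases before CORI3 on chromosome 4 and went from 36.9 and 26.1 to 8.69 and 4.89. The next gene beyond NATA1, AT2G39040, fell from 114 and 115 to 46.2 and 47.1 (log2 change −1.29, limma adjusted p = 0.000401), while PIP2E, an aquaporin gene on the far side of NATA2, rose (0.30, limma adjusted p = 0.000233). The neighbours AT5G24760 of VSP2 (−0.04), AT2G24860 of TAT3 (−0.08) and hemb2 and AT1G44414 of ILL6 (−0.73 and 0.17) did not pass, and AT5G24790 beside VSP1 had no read. AT4G23610 beside CORI3, AGL61 beside TAT3 and AT1G32650 beside MYC2 were at or near 0. Over the 4 libraries, the profiles nearest to that of NATA1 among 19815 genes were those of DPBF2, SAG12 and AT1G29770 (Euclidean distance 1.46, 1.61 and 1.80 on centred log2 values). SAG12 is listed at 0 in both uba2c libraries, DPBF2 at 0.943 and 2.95 and AT1G29770 at 0 and 1.97. So near the floor, these distances to NATA1 can be largely counting error. The profiles nearest to that of VSP2 were those of AT1G76955, AT1G13650 and CEP2, a protease gene (distance 0.06, 0.06 and 0.07). With 2 libraries per genotype, a near profile mostly restates a similar change between the genotypes, the comparison on which the set was chosen. Shared control of these genes was not tested.

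Other values moved with the genotype beside these genes. The counts past the FDR given here stand against 17.4% of all genes tested in each direction. Of 9 clock genes 4 were lower and 3 higher, among them PRR5 at −1.23, ELF4 at −0.56, GI at −0.38 and LHY at 1.37 (limma adjusted p = 5.97e-06, 0.00169, 0.000216 and 0.000181). Jasmonate genes are known to vary over the day, and with no time of harvest given, time and genotype cannot be told apart. Of 6 root markers 3 fell, the root hair genes PRP3 (−1.93), COBL9 (−1.90) and EXPA7 (−1.89), and 2 rose, among them PYK10 at 0.12. Of 4 flower markers AP3 (17.4 and 21.4 against 1.92 and 1.96) and AG (6.73 and 14.6 against 2.89 and 1.96) fell. Of 5 leaf markers RBCS1A (0.28) and RCA (0.23) rose and CAB1 (−0.18) and LHCB2.1 (−0.14) fell. The part of these markers in the results was not tested, and in bulk seedlings fewer cells of a type and less RNA per cell cannot be told apart.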

How the data were processed

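Values are from 4 libraries of single-end 50-base reads. HISAT2, featureCounts, edgeR, FastQC and SAMtools 1.9 are named, with the build TAIR10, per the submitters' processing notes; their roles, options and any use of strand are not known here. What the authors deposited is a signal for each gene that behaves as reads scaled to one library size, and no label states how it was made. Inverting edgeR's quantile adjustment within each genotype gave whole reads for 100% of values in each library (tolerance 0.001). Fitted size ratios were 1.03, 1.03, 1.04 and 1.02.

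The main test was limma 3.58.1 in R 4.3.3 with a mean-variance trend on log2(value + 0.5), two-sided, for 22439 genes that reached 1 in 2 or more libraries, with Benjamini-Hochberg adjustment over all of them. Alternatives used edgeR 4.0.16 (quasi-likelihood test; 9138 genes called) and DESeq2 1.42.0 on recovered reads. The limma and edgeR steps were tested on simulated reads with a dispersion of 0.0006279, the value fitted when reads were recovered. That test does not cover a larger spread between plants. All 32548 identifiers matched RefSeq TAIR10.1, which gave coordinates, exon lengths and windows. The table holds 0 columns of other samples.

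The members and lists were chosen with earlier results of these data known. The rule for named genes took all members, up to 4 genes past the FDR per list by smallest p, LOX2, COI1, MYC3, MYC4, JAZ1 and JAZ10 whatever their result, each member's neighbours, and the 3 genes nearest in profile to NATA1 and to VSP2 with a mean value of at least 10. Promoter pairs were aligned globally with Biopython 1.88.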

Additional observations from a re-analysis of the deposited data

How the results depend on the processing

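Over all alternatives, the 7 members with reads kept their direction, and their median log2 change was between −1.18 and −1.11 when each library was left out in turn. Without uba2c 1 or without uba2c 2 limma rested the spread on the Col-0 pair, the lone uba2c library being assumed to vary like it, and called 0 genes (with 7513 and 7412 genes at unadjusted p below 0.05). edgeR without the same library, added after seeing the data, called 5828 and 6492. Leaving out each library gave, over both tools, 0 to 7251 calls among all genes, and among the pathway genes 0 to 20 higher and 0 to 32 lower. By list the range of calls in either direction was 0 to 4 for the receptor and MYC-type genes, 0 to 7 for JAZ, 0 to 10 for synthesis, 0 to 3 for turnover, ILL6 relatives and VSP relatives, 0 to 4 for CORI3 and TAT3 relatives and for polyamine genes, 0 to 11 for other outputs and 0 to 8 for early wound factors. limma without the mean-variance trend called 3589 genes against 7809, and 10 higher and 20 lower pathway genes against 22 and 35: 0 receptor and MYC-type genes, 3 JAZ, 6 synthesis, 1 turnover, 0 ILL6 relatives, 2 CORI3 and TAT3 relatives, 1 VSP relative and 2 polyamine genes. DESeq2 called 4804, with 14 higher and 21 lower pathway genes: 2 receptor and MYC-type genes, 3 JAZ, 7 synthesis, 1 ILL6 relative and 0 VSP relatives. edgeR called 5 turnover genes against 3, and 5 receptor and MYC-type genes, 3 ILL6 relatives and 3 VSP relatives. The cause of these differences was not tested. Of the 57 pathway genes called, all 57 kept their direction under every alternative. The call was kept by 57 with edgeR, 47 without a filter on low values, 51 after quantile normalisation, 35 with DESeq2 and 29 without the trend. Among those named, limma without the trend lost MYC5, JAM1, JAM2, JAM3, NINJA, JAZ3, JAZ4, JAZ5, OPR3, ACX1, LOX3, JOX3, JOX4, IAR3, ILL2, ILL3, SUR1, AT4G28410, AT4G29260, ADC1 and ADC2. LHCB2.1 turned from −0.14 to 0.0675 after quantile normalisation (limma adjusted p = 0.0804). With the replicate number as a block limma called 8025 genes, 22 pathway genes higher and 35 lower; the labels do not say that a number marks shared plants, and replicate differences in the 2 genotypes correlated at 0.008 over 19816 genes, so the numbers give no pairing. Depth limits NATA1 in uba2c (7 reads in all) and JOX4 (6).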
